A study of Mus musculus with 2 samples.

Results

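The genes described here are the matrix metalloproteinases (MMPs), the ADAM and ADAMTS metalloproteinases, the ADAMTS-like proteins (ADAMTSL) and the tissue inhibitors of metalloproteinases (TIMPs), in mouse embryonic fibroblasts labelled as wild-type or deleted for Usp16. Members were taken by gene symbol alone, as Mmp, Adam, Adamts, Adamtsl or Timp followed by a number and at most 1 letter. This gave 84 of the 51912 gene rows, of which 23 were Mmp, 33 Adam, 19 Adamts, 5 Adamtsl and 4 Timp genes. The data were 2 RNA-seq libraries of embryonic fibroblasts on a C57BL/6 background, immortalized with SV40 T antigen and infected with adenovirus carrying Cre recombinase (Ad-Cre). The KS library came from the line with wild-type Usp16 (Usp16+/+), and the UKS library from the line whose floxed Usp16 alleles Cre was meant to delete (Usp16-/-). The comparison asks which transcripts differ between lines of these labels for Usp16, a histone H2A deubiquitinase. Whether each line was 1 clone, and from how many embryos it came, is not given in the sources used here. These lines came from embryos of different genotype, so a difference between embryos or cultures cannot be told apart from the deletion.

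MMPs are secreted or membrane-anchored zinc proteases that cleave collagens and other matrix proteins, and most are made as inactive precursors. ADAMs are membrane proteins, and those with an active site release the outer parts of growth factors, cytokines and receptors from the cell surface, a step called shedding. ADAMTS enzymes are secreted and cut proteoglycans, procollagens and other matrix proteins, ADAMTSL proteins resemble them without the protease domain, and TIMPs bind and block the active enzymes. Fibroblasts are a main source of MMPs and TIMPs in connective tissue.

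Each group had 1 library, so no difference below has a replicate check and no p-values are given. The libraries held 26561600 counts (KS) and 23205734 counts (UKS) after rounding. Levels are counts per 1000000 counts of a library (CPM), scaled by TMM, and levels of different genes were compared per kb of transcript. The log2 ratio is log2((UKS + 1)/(KS + 1)) of CPM, a scale that understates differences of low genes, and it was read where the mean level reached 1 CPM, called measured here. A gene was counted as higher or lower when this ratio reached 2-fold (1 on the log2 scale), which is a size and not a test. Folds are plain ratios of CPM, so a low gene can have a fold above 2 and still lie within 2-fold on the log2 scale, and brackets hold their exact 95% interval, which covers counting error only. Usp16 itself had 1195 counts in KS against 459 in UKS, 2.30-fold lower [2.07 to 2.57], so its transcript was reduced but still present in the library labelled Usp16-/-. Its log2 ratio was −1.16, and −0.88 with the length and GC trend described further on removed, which is within 2-fold. Gene totals do not show whether the floxed part was lost. Of the 8 fibroblast markers all were measured, among them Vim (4205 CPM in KS and 2413 in UKS) and Col1a2 (2176 and 1202 CPM). In bulk RNA, fewer cells of a type and less RNA per cell cannot be told apart.

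Of the 84 members 41 were measured, 25 had counts but a mean under 1 CPM, and 18 had none in either library. Of the 41 measured members 9 (22%) were at least 2-fold higher in UKS, against 5.81% of all 13015 measured genes. A further 7 members (17.1%) were at least 2-fold lower, against 10.7% of all measured genes, and 25 lay within 2-fold. The 9 higher members were Mmp3, Mmp9, Mmp13, Mmp19, Mmp28, Adamts7, Adamts9, Timp1 and Timp2. The 7 lower ones were Mmp23, Adam23, Adamts1, Adamts5, Adamts6, Adamts12 and Adamts14. The median log2 ratio of the measured members was −0.04, beside 0.03 over all measured genes, so the members past 2-fold (39.0%, against 16.5% of all genes) lay on both sides without a common shift. Over all genes the ratio followed transcript length and GC content, being greater for short transcripts of high GC content. With that trend subtracted, 6 members were higher and 8 lower, against 5.51% and 4.96% of all genes with a trend value, so higher members were 42.9% of all past 2-fold, whereas they had been 56.25% as counted. Of the 16 members past 2-fold as counted, 13 stayed past it in the same direction, and Mmp28, Timp1 and Timp2 did not.

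**Figure D1:**
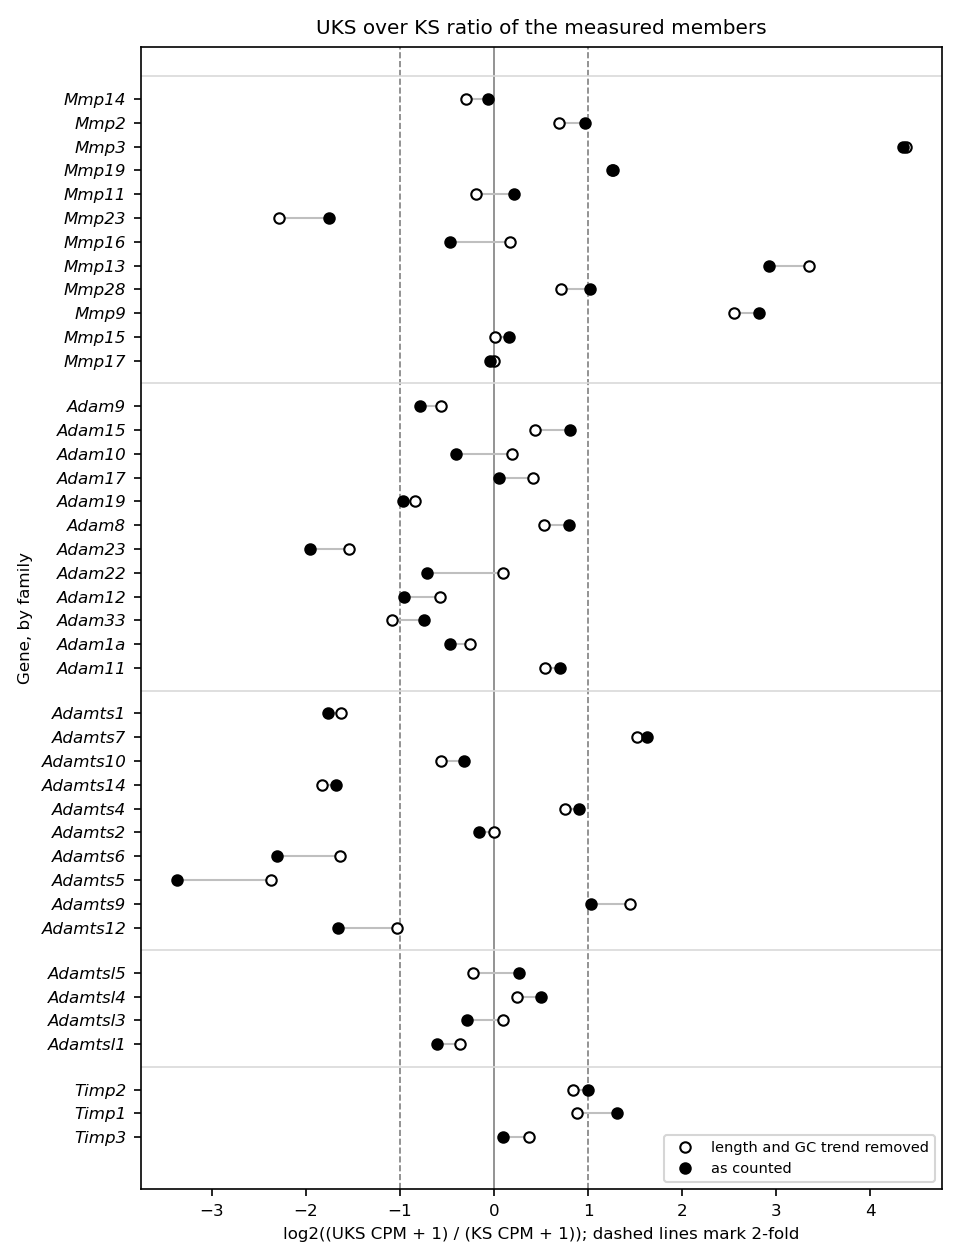
The log2 ratio of UKS over KS is drawn for each of the 41 measured members by family, with filled points as counted, open points with the length and GC trend removed, and dashed lines at 2-fold. Mmp3 stands farthest to the right at 4.35 and Adamts5 farthest to the left at −3.37, and points of 1 gene from 1 library per group carry no error.

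The calls are given by family below, to be read beside 5.81% higher and 10.7% lower over all measured genes. Of 12 measured Mmp genes 5 were higher and 1 was lower, with a median log2 ratio of 0.59. Of 10 measured Adamts genes 2 were higher and 5 lower, with a median of −0.99. Of 12 measured Adam genes none was higher and 1 was lower, with a median of −0.59, which was −0.08 with the trend removed. The Adam share that was lower, 8.33%, was near that of all measured genes. All 4 measured Adamtsl genes lay within 2-fold, between −0.60 and 0.50. Of 3 measured Timp genes 2 were higher and 1 lay within 2-fold, and with the trend removed all 3 lay within it. No test of the difference between families was made, because members are not replicates.

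Mmp3 and Mmp13, which stood 22.9-fold and 12.4-fold higher, lie in a gene cluster on chromosome 9 (GRCm38, 7272514 to 7699585) that holds 10 members within 427 kb. The sequences just before the start of these genes are shown because most cluster members share a short element there. This element was searched as TGANTCA, with N for any base, a form that includes the binding sequence of AP-1, a transcription factor made of Fos and Jun proteins. It reads the same on both strands, and it was the only motif searched. The 100 bases before the start, read 5′ to 3′ from RefSeq on GRCm38.p6, are given with the element in capitals. First come Mmp3, Mmp13 and Mmp10, the cluster genes with the most counts in UKS, then Mmp1a and Mmp7, which were at or near 0, and last Mmp8, which has no match.
Mmp3 (chr9:7445722-7445821, plus strand): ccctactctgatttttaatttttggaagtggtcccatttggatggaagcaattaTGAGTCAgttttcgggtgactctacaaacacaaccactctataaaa
Mmp13 (chr9:7272414-7272513, plus strand): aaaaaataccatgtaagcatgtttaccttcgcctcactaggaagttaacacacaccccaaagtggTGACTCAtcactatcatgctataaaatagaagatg
Mmp10 (chr9:7502242-7502341, plus strand): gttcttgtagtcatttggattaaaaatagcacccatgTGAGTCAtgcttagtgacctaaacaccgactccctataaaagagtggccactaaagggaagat
Mmp1a (chr9:7464041-7464140, plus strand): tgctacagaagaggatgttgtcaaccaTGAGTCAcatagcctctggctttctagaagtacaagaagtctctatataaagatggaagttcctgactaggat
Mmp7 (chr9:7691990-7692089, plus strand): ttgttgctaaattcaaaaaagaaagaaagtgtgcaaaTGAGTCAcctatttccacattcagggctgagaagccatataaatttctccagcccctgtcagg
Mmp8 (chr9:7558329-7558428, plus strand): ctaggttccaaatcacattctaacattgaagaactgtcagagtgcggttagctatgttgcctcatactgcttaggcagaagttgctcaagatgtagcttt

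In the 250 bases before the start, 8 of the 10 cluster genes held at least 1 match, Mmp8 and Mmp27 being the exceptions. A gene was counted when any of its RefSeq starts had a match. Mmp12 and Mmp7 each have another start without one, and the match of Mmp20 was TGAATCA. Of the 43 other members with a RefSeq sequence 4 held one, and of all 27025 genes with one 7.82% did. The element began 46 bases before the start of Mmp3, 35 before that of Mmp13 and 63 before that of Mmp10. It stood 73 and 63 bases before the start in Mmp1a and Mmp7, which had no counts and 3 counts in all and so give no readable ratio. Of the measured genes with a RefSeq sequence, 9.55% of 534 higher, 6.15% of 959 lower and 5.15% of 8192 within 2-fold held the element. Of the members with a sequence 2 of the 6 higher (Mmp3 and Mmp13) and none of the 5 lower ones held it, beside 1 of 15 within 2-fold and 9 of 27 below the filter. A match is a description of the letters and says nothing on whether AP-1 was bound.

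Mmp3, or stromelysin, degrades proteoglycans and several matrix proteins and activates other precursors of MMPs. The gene (ENSMUSG00000043613; chromosome 9, 7445822 to 7455975, plus strand) had 208 counts in KS against 4216 in UKS. These are levels of 7.88 and 181 CPM, 22.9-fold higher [19.9 to 26.5]. Its share of the summed per-kb level of the Mmp family was 1.18% in KS and 16.7% in UKS, which moved it from the seventh to the third place, after Mmp2 and Mmp14. Mmp13, a collagenase that cuts fibrillar collagen (chromosome 9, 7272514 to 7283331, plus strand), had 36 and 395 counts. It was 12.4-fold higher [8.81 to 18.0] and its level in UKS was 6.33 CPM per kb, beside 100.3 for Mmp3. Mmp10, a second stromelysin close to Mmp3 in sequence, had 12 and 34 counts and a mean under 1 CPM. The interval of its ratio, 3.2 [1.62 to 6.79], lay above equal levels but included 2-fold. The macrophage elastase gene Mmp12 had 6 and 10 counts, and its ratio of 1.88 [0.621 to 6.31] included equal levels. The rest of the cluster was close to undetected, with no more than 4 counts of Mmp1a, Mmp1b, Mmp7, Mmp8, Mmp20 and Mmp27 in either library. Within 1 Mb of the cluster 9 other genes were measured, with a median log2 ratio of −0.29. None of them was at least 2-fold higher and 3 were lower (Pdgfd, Dync2h1 and Cep126). Of these 3, Pdgfd stayed past 2-fold with the trend removed (−1.60), while Dync2h1 (−0.70) and Cep126 (−0.60) lay within it. Among measured genes, levels at least 2-fold higher were thus seen at Mmp3 and Mmp13 and not beside the cluster. Mmp10 was also higher beyond counting error, at a level below the filter.

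**Figure D2:**
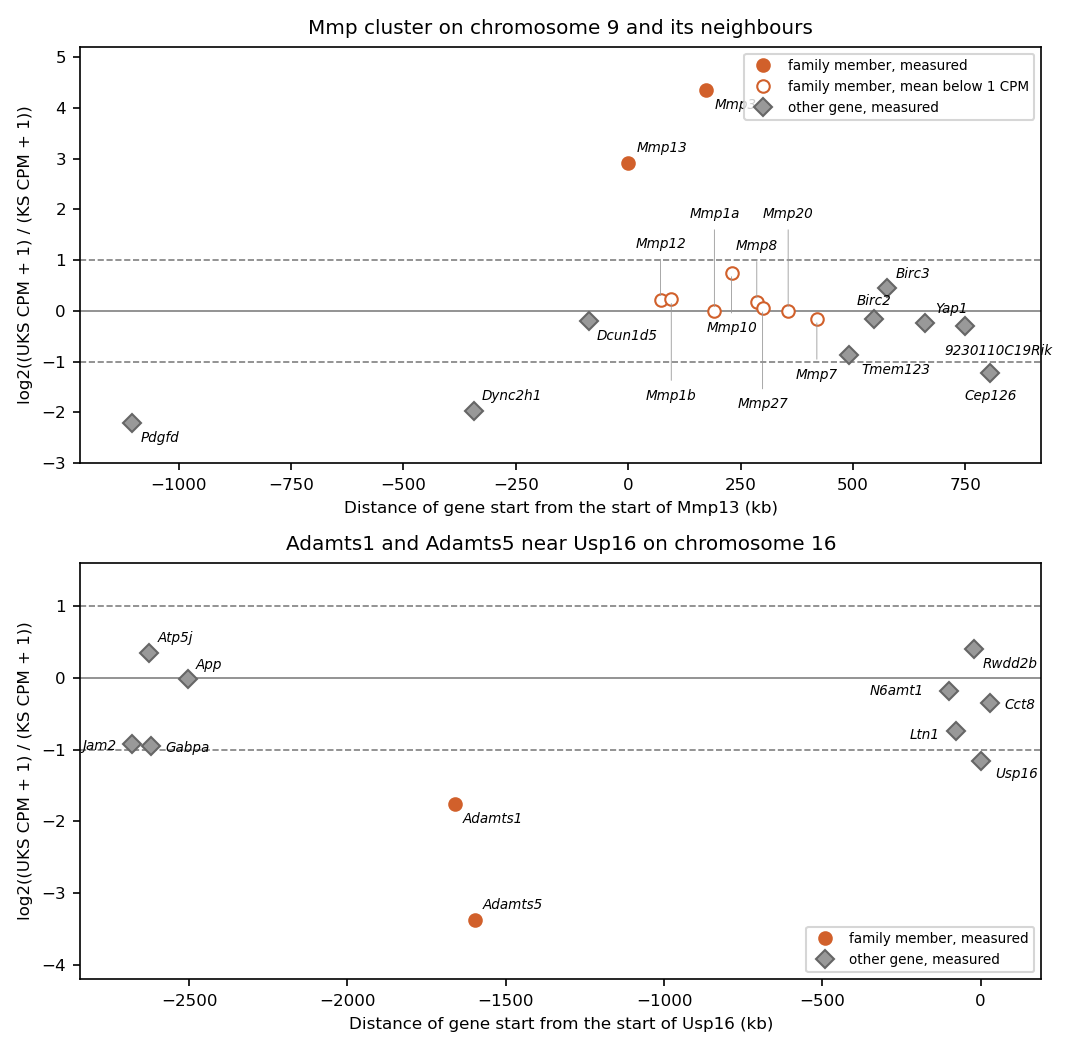
The log2 ratio of UKS over KS is plotted against the distance of each gene start from the start of Mmp13 (top) or Usp16 (bottom), in kb, with family members in orange (open where the mean was under 1 CPM) and other measured genes in grey. Mmp3 and Mmp13 lie at 4.35 and 2.92 above flanking genes whose highest ratio is 0.44, and Adamts1 and Adamts5 lie at −1.76 and −3.37 below their measured neighbours.

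Outside the cluster, the gelatinase gene Mmp9 was near absence in KS and at a low level in UKS. Mmp9, which cleaves denatured collagen and basement membrane collagen (chromosome 2, 164940780 to 164955850, plus strand), had 5 counts in KS against 173 in UKS. This is a 39.1-fold higher level [16.4 to 122], and at 2.33 CPM per kb in UKS it was still far under the 238 CPM per kb of the other gelatinase, Mmp2. Leukocytes are a known source of Mmp9. Of their markers Ptprc had 2 and 1 counts, Csf1r 7 and 8, and Adgre1, Itgam, Tyrobp and Fcer1g none. Of the 10 leukocyte markers listed, 3 were measured and 1 (Cd14, at 18.8 and 62.3 CPM) was at least 2-fold higher, with Coro1a at 24 and 59 counts and Cd68 at 154 and 113. The summed level of the list was 25.9 CPM in KS against 70.2 in UKS. Cartilage and bone cells are known for Mmp13. Of 7 measured markers of these cells 3 were higher, namely the osteoblast factor Sp7 (16 and 192 counts), the cartilage collagen gene Col10a1 (6 and 64 counts) and the cartilage factor Sox9 (646 and 1195 counts). The other 4 lay within 2-fold on the log2 scale. Of these, Col2a1 (2.04-fold), Col11a2 (3.5-fold, from 17 and 53 counts) and Spp1 (1.70-fold) were higher in UKS. The bone factor Runx2 had 1384 and 724 counts, 1.69-fold lower [1.54 to 1.85]. The log2 ratio was thus above 0 for 6 of the 7 measured markers. The list summed to 5302 CPM in KS against 8963.5 in UKS, most of it from Spp1. Of the markers that were not measured, Alpl had 2 and 26 counts (14.7-fold higher [3.68 to 128]), Bglap 0 and 2, and Ibsp none. The part of leukocytes and of cartilage and bone cells in the higher Mmp13 and Mmp9 levels was not tested.

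The MMP genes with the most RNA moved less. Mmp14, a membrane-type MMP that cleaves collagen and activates the Mmp2 precursor at the cell surface, stood at 621 CPM in KS against 593 in UKS. Mmp2, a gelatinase of fibroblasts, stood at 373 and 731 CPM, 1.96-fold higher [1.91 to 2.01] with a log2 ratio of 0.97. It was the member nearest to 2-fold from inside in the upward direction. Per kb of transcript, Mmp14 was the most abundant Mmp gene in KS (192 CPM per kb, against 121 for Mmp2), and Mmp2 was so in UKS (238, against 183 for Mmp14). The order of the leading pair was thus reversed between the libraries.

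Among the remaining MMPs, Mmp19, Mmp28 and Mmp23 passed 2-fold. Mmp19, which cleaves basement membrane proteins, had 61.2 CPM in KS against 148 in UKS, 2.41-fold higher [2.27 to 2.56]. It overlaps Tmem198b on the opposite strand (41.6 and 50.7 CPM), and its deposited counts were not whole, so reads may have been split between genes. Mmp28, or epilysin, had 128 and 253 counts, 2.23-fold higher [1.80 to 2.79], with log2 ratios of 1.02 as counted, or 0.71 after trend removal. Its deposited counts were not whole either. It overlaps 1700020L24Rik on the opposite strand, which had 16 and 53 counts and a log2 ratio of 1.03. Mmp23, an MMP anchored by its amino-terminal end and released by furin-type cleavage, was the only lower Mmp gene past 2-fold. It had 523 counts in KS against 121 in UKS, 3.82-fold lower [3.13 to 4.70], and −2.28 with the trend removed. The 4 measured membrane-type MMPs (Mmp14, Mmp15, Mmp16 and Mmp17) all lay within 2-fold, with log2 ratios from −0.46 to 0.16. Mmp11, the third stromelysin, differed little, with 31.1 CPM in KS against 36.1 in UKS.

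**Figure D3:**
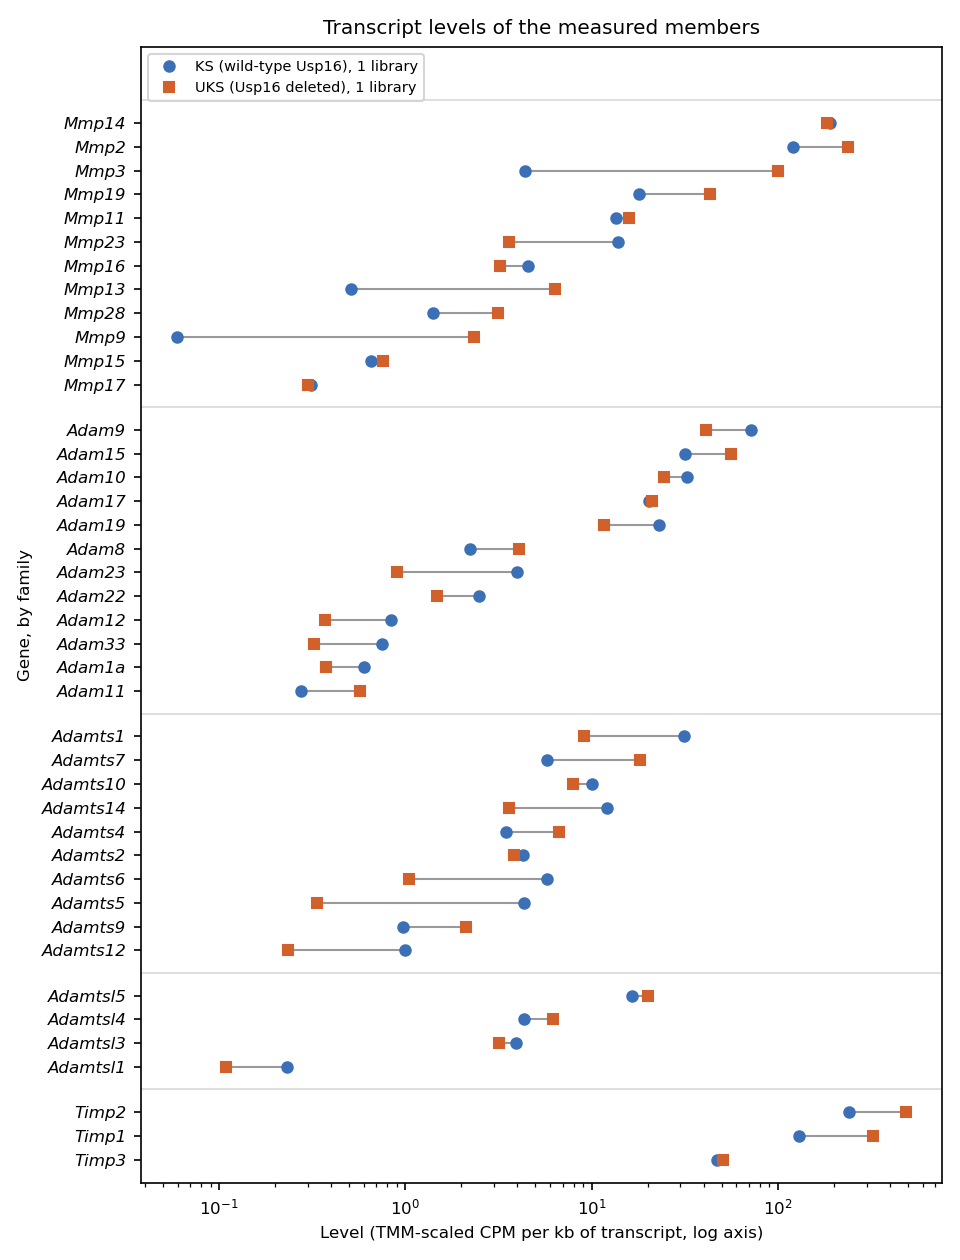
Levels in CPM per kb of transcript are shown on a log axis for the 41 measured members, with 1 point for KS (blue circle) and 1 for UKS (orange square), sorted by mean level within each family. The longest upward lines are those of Mmp9, Mmp3 and Mmp13 and the longest downward line is that of Adamts5 (4.35 to 0.337 CPM per kb).

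The ADAMTS genes were the family with the most members past 2-fold on the lower side, with 5. Adamts5, an aggrecanase that cuts the large proteoglycans aggrecan and versican, had 1240 counts in KS against 85 in UKS. The levels were 47.0 and 3.64 CPM, 12.9-fold lower [10.4 to 16.3]. Its transcript of 10791 nt was the longest of the measured members, and with the length and GC trend removed the log2 ratio was −2.37 in place of −3.37. Adamts1, which also cuts versican, was per kb the most abundant Adamts gene in KS, and stood at 153 CPM there and at 44.5 CPM in UKS, 3.44-fold lower [3.22 to 3.69]. Both are neighbours on chromosome 16 (Adamts1 at 85793827 to 85803113, Adamts5 at 85856173 to 85901828, minus strand), 53.1 kb apart.

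This pair lies on the same chromosome as Usp16, whose start is 1553 kb from the end of Adamts5 and 1652 kb from that of Adamts1. Among the genes overlapping the stretch from 1 Mb before Adamts1 to the end of Usp16, 9 others were measured, Usp16 included. None stood higher by the rule, Usp16 was the only one at least 2-fold lower, and the median log2 ratio was −0.35. App, the nearest measured gene on the far side, had a ratio of −0.02, and N6amt1, the nearest measured one towards Usp16, of −0.18. Farther away, Gabpa (−0.95), Jam2 (−0.92) and Ltn1 (−0.74) stood lower but within 2-fold.

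The other measured hyalectanases, as the proteoglycan-cutting ADAMTS enzymes are called, were Adamts4 and Adamts9. Adamts4, an aggrecanase, had 15.3 CPM in KS against 29.4 in UKS, 1.92-fold higher [1.70 to 2.18] and within 2-fold at a log2 ratio of 0.90. Adamts9, which cuts versican, had 205 and 394 counts, 2.17-fold higher [1.83 to 2.59], and its log2 ratio was 1.03 as counted, or 1.44 after trend removal. Of the 4 measured hyalectanases 2 were thus lower, 1 (Adamts9) was higher and 1 (Adamts4) lay within 2-fold, and Adamts9 was within it (0.83) with a pseudocount of 4 CPM. Adamts8, Adamts15 and Adamts20 had no more than 11 counts in either library. The summed per-kb level of the 7 hyalectanases was 40.3 CPM per kb in KS and 18.3 in UKS. Adamts1 alone held 31.3 and 9.10 of these, so the lower sum mainly follows that gene. Adamts5 held 4.35 and 0.337, while Adamts4 rose from 3.48 to 6.69 and Adamts9 from 0.969 to 2.11. The hyalectanase substrate versican (Vcan) was lower, with 757 and 214 CPM, 3.54-fold [3.43 to 3.65]. The Vcan transcript is long and AT-rich, and its log2 ratio was −1.82 as counted, or −0.70 after trend removal.

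Adamts7 and Adamts12, which both cleave cartilage oligomeric matrix protein, went in opposite directions. Adamts7 (chromosome 9, 90163069 to 90208071) had 30.8 CPM in KS against 97.4 in UKS, 3.16-fold higher [2.91 to 3.43]. It overlaps Tbc1d2b on the opposite strand, whose own level was 165 and 183 CPM. Adamts12 had 225 and 47 counts, 4.23-fold lower [3.08 to 5.93], and its log2 ratio of −1.66 was −1.03 with the trend removed. Adamts7 was at 18.1 CPM per kb the most abundant Adamts gene in UKS, where Adamts1 was at 9.10, whereas in KS Adamts1 was at 31.3 and Adamts7 at 5.73.

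The enzymes that trim procollagen did not move together. Adamts14, which removes the amino-terminal propeptide of fibrillar procollagens, had 62.5 CPM in KS against 18.8 in UKS, 3.32-fold lower [2.99 to 3.70]. Adamts2, with the same activity, had 31.1 and 27.7 CPM, and Adamts3 had 1 count in each library. Adamts6, whose relative Adamts10 acts on fibrillin microfibrils, had 992 and 159 counts, 5.52-fold lower [4.66 to 6.57]. Adamts10 itself had 40.5 and 32.3 CPM, 1.25-fold lower [1.14 to 1.38]. Adamts13, which cleaves von Willebrand factor, and Adamts16 to Adamts19 had no more than 4 counts in either library. Of these genes Adamts14 and Adamts6 were past 2-fold, both lower.

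Among the ADAMs, the genes with an established role in shedding lay within 2-fold. Adam10 and Adam17, the main sheddases of Notch receptors and of TNF, had 149 and 113 CPM (Adam10) and 91.0 and 94.7 CPM (Adam17) in KS and UKS. The Adam17 ratio of 1.04 [0.981 to 1.1] included equal levels, and Iah1 overlaps it on the opposite strand (18.8 and 32.3 CPM). Adam9 was the most abundant ADAM in KS at 71.5 CPM per kb and had 41.3 in UKS, 1.73-fold lower [1.66 to 1.80]. Adam15 went the other way, from 31.7 to 55.9 CPM per kb, 1.76-fold higher [1.68 to 1.85], and was the most abundant one in UKS. Adam19, a sheddase of neuregulin, was the member nearest to 2-fold from inside in the downward direction, with 147 and 74.9 CPM and a log2 ratio of −0.97. Adam12 had 170 and 66 counts, 2.28-fold lower [1.70 to 3.08], which came to −0.96 on the log2 scale.

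Adam23 was the only ADAM past 2-fold. It has no active protease site and acts in cell adhesion. The gene (chromosome 1, 63445891 to 63596276, plus strand) had 674 counts in KS against 136 in UKS, 4.38-fold lower [3.64 to 5.31], and −1.54 with the trend removed. Its inactive relatives did not share one direction, with 606 and 318 counts of Adam22 and 37 and 68 counts of Adam11. Adam33 had 63 and 24 counts and crossed 2-fold with the trend removed (log2 ratio −1.09, and −0.74 as counted). Adam8, found on leukocytes among other cells, had 182 and 296 counts, 1.84-fold higher [1.52 to 2.22].

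The silent members were mostly ADAMs known from testis. Of the 33 Adam genes 14 had no counts in either library, 9 of them among the 13 Adam genes on chromosome 8. A gene with no counts can have had a level of up to 0.114 CPM (KS) or 0.128 CPM (UKS), the level of 3 counts. Male germ cell markers were also close to absent, with none of 7 measured, Tnp1, Prm1 and Acrv1 at 0, and Zpbp the highest at 28 and 7 counts. Of the 25 members with counts but a mean under 1 CPM, 5 had at least 10 counts in 1 library (Mmp10, Mmp12, Mmp25, Adam5 and Adamts8). None of the 5 had an interval of the ratio beyond 2-fold, against 7.44% (higher) and 8.31% (lower) of 2071 genes of that kind. Mmp25 had 18 and 5 counts, and Adam5 had 17 and 15.

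The ADAMTS-like genes, which bind matrix without cutting it, lay within 2-fold and kept their order of level. Adamtsl5 stood at 16.5 CPM per kb in KS and 20.0 in UKS, Adamtsl4 at 4.32 and 6.23, and Adamtsl3 at 3.91 and 3.19. Adamtsl1 had 48 and 20 counts, 2.12-fold lower [1.24 to 3.78] and −0.60 on the log2 scale, and Adamtsl2 had 2 counts and 1.

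The inhibitors with the most RNA were higher in UKS. Timp2, which blocks most MMPs and at low levels also takes part in activating the Mmp2 precursor with Mmp14, had 23693 counts in KS against 42038 in UKS. At 897 and 1800.5 CPM it was 2.01-fold higher [1.97 to 2.04], with a log2 ratio of 1.0 that lies at the edge of 2-fold and was 0.97 with DESeq2 size factors. Timp1, a secreted inhibitor that also acts as a growth factor, had 3043 and 6722 counts, 2.50-fold higher [2.39 to 2.61]. With the length and GC trend removed the log2 ratios were 0.84 for Timp2 and 0.88 for Timp1, within 2-fold. Timp3, the TIMP that binds to matrix and also blocks ADAMs, had 224 and 239 CPM, 1.07-fold higher [1.03 to 1.11]. Timp4 had no counts in KS against 7 in UKS, which is a ratio of 2.64-fold when 3 counts stand in for the 0. The lower limit of its exact interval was 1.63, so the interval included 2-fold.

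Timp1 is X-linked (20870166 to 20874735, plus strand), and the libraries differed in X-inactivation RNA, with 1 count of Xist in KS and 6998 in UKS. Of 420 measured X-linked genes 11 (2.62%) stood higher by the 2-fold rule and 82 (19.5%) lower, beside 5.81% and 10.7% of all genes, with a median log2 ratio of −0.29. After trend removal 15 stood higher and 26 lower, the median was −0.07, and Timp1 lay within 2-fold. The part of the X chromosome in its level was not tested. Timp1, Timp3 and Timp4 lie within introns of synapsin genes on the opposite strand. The overlapping gene of Timp1, Syn1, had 67 and 47 counts and that of Timp3, Syn3, had 19 and 8, both small beside the Timp counts.

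Summed per kb over each family, the Mmp genes came to 371 CPM per kb in KS and 601 in UKS, and the Timp genes to 420 and 862. The sum of the Timp genes was 1.13 times that of the Mmp genes in KS and 1.43 times in UKS. Adam genes summed to 191 and 163 CPM per kb and Adamts genes to 79.2 and 53.1. Sums of RNA levels rest on the transcript length taken for each gene and do not measure protease activity.

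**Figure D4:**
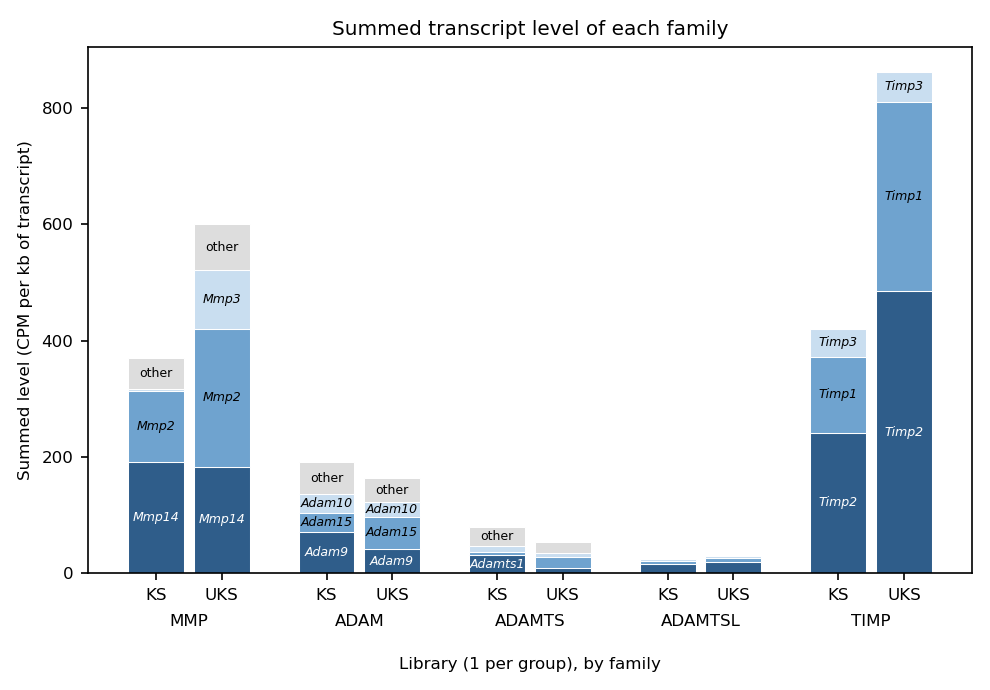
Bars give the summed level of each family in CPM per kb of transcript in the KS and UKS library, split into the 3 genes with the highest mean level and all others. The TIMP and MMP bars are taller in UKS (862 against 420, and 601 against 371), and the ADAM and ADAMTS bars are lower.

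Members with longer transcripts tended to have lower ratios. Over the 41 measured members, which share the same 2 libraries and are not independent, Spearman's rho of the log2 ratio was −0.53 with transcript length and 0.22 with GC content. The measured Adamts genes had a median length of 5929.5 nt and the measured Mmp genes one of 3206.5 nt, beside 3158 nt over all measured genes. All 5 lower Adamts genes stayed past 2-fold with the trend removed, while the family median moved from −0.99 to −0.80.

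Enzymes and partners that control these proteases, or that they act on, were described from 7 lists holding 67 genes. These lists were chosen with earlier results of these data known, so their shares beside all genes are not independent of the data. Of 47 measured genes 12 (25.5%) stood higher and 5 (10.6%) lower, against 5.81% and 10.7% of all genes, and with the trend removed 9 and 3 were. Among proprotein convertases, which cut the propeptides of many ADAMs, ADAMTS enzymes and membrane-type MMPs, 2 of 5 measured were higher. Furin had 122 CPM in KS against 255 in UKS, 2.09-fold higher [2.0 to 2.18] and 0.84 on the log2 scale with the trend removed. Pcsk5 had no counts in KS against 77 in UKS, which is a ratio of 29.0-fold when 3 counts stand in for the 0. The lower limit of its exact interval lay below that ratio but above 2-fold. Pcsk7 stood at 38.8 and 51.2 CPM.

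The plasminogen system, which yields plasmin, an activator of several MMP precursors, had 1 of 6 measured genes past 2-fold. This was Serpine2, an inhibitor of plasminogen activators and thrombin, with 78.5 and 232 CPM, 2.96-fold higher [2.81 to 3.11]. The receptor Plaur was 1.54-fold higher [1.43 to 1.65] and the activator Plat 1.39-fold lower [1.32 to 1.47]. Of 4 measured genes for other inhibitors and receptors, the proteoglycan Spock2 (23 and 91 counts) was 4.47-fold higher [2.81 to 7.41]. The membrane inhibitor Reck had 16.4 and 14.3 CPM, the MMP inducer Bsg 616 and 1028 CPM, and the clearance receptor Lrp1 2732 and 2382 CPM.

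Of 7 measured ADAM partners, Rhbdf2, which carries Adam17 to the cell surface, was higher with 13.9 and 31.3 CPM, 2.25-fold [1.98 to 2.56]. Tspan5, a tetraspanin that binds Adam10, was lower with 94.1 and 45.5 CPM, 2.07-fold [1.92 to 2.22]. Neither was past 2-fold with the trend removed, and Frmd8 stood at 102 and 155 CPM. Among the 4 measured astacin proteases and their enhancers, which include the procollagen C-proteinases, Tll1 was 9.46-fold lower [6.16 to 15.2] from 246 and 23 counts. Pcolce2 was 2.69-fold higher [1.9 to 3.87] from 47 and 112 counts, and the abundant Bmp1 had 191 and 291 CPM.

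Membrane proteins that ADAMs shed formed the longest list, and 6 of its 20 measured genes were higher and 2 lower. The adhesion molecule Icam1 had 111 and 1187 counts, 12.1-fold higher [9.95 to 14.8], and the transmembrane chemokine Cxcl16 had 115 and 778, 7.65-fold higher [6.28 to 9.39]. The kit ligand gene Kitl had 1554 and 156 counts, 8.81-fold lower [7.47 to 10.5]. The other higher genes were the EGF receptor ligands Areg, Ereg and Btc and the chemokine Cx3cl1, and the other lower one was the cadherin Cdh2. The remaining 12 lay within 2-fold, and after trend removal 5 stood higher and 2 lower.

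Markers of other cell types were low and moved in both directions. Of 3 measured epithelial markers 2 were lower, Krt18 at 2.95 and 0.771 CPM and Dsp with 59 and 8 counts. Krt19, at 16 and 11.4 CPM, lay within 2-fold. Of 3 measured endothelial markers 1 was higher, Flt1 with 15.6 and 45.7 CPM, while Vwf had 26 and 35 counts and Kdr 38 and 19, and Pecam1 had 3 and 6. Of the 8 fibroblast markers 2 were lower, Pdgfra 2.86-fold and Thy1 4.71-fold, and none was higher. The summed fibroblast list was 9866 CPM in KS against 6403 in UKS, and its part in the lower members was not tested.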

How the data were processed

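RNA-seq of 2 libraries, KS and UKS, was analysed from the files deposited by the authors, in which each of 51912 gene rows holds an estimated count without depth scaling. Per the submitters' processing notes, HISAT2, StringTie and GRCm38.p5 were used, in roles that the notes as held here leave out. Which program counted, on which annotation release and strand setting, is not given in the sources used here. Of genes above 0, 23.1% (KS) and 21.5% (UKS) had a count that was not whole, and 7 measured members were among them, so counts were rounded. Without strand, reads of overlapping genes cannot be told apart, and 17 measured members overlap a gene with counts. Reads shared by similar members such as Mmp3 and Mmp10 may also have been split.

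TMM factors (0.994 and 1.01) came from edgeR 4.0.16 in R 4.3.3, and 1 count equals 0.0379 CPM in KS and 0.0428 CPM in UKS. The log2 ratio used a pseudocount of 1 CPM. Intervals are conditional Clopper-Pearson 95% intervals (scipy 1.17.1). No test was made, since each group has 1 library. Positions, overlaps, length and GC content are from GENCODE M21 (GRCm38), in which all 84 members were found, with the longest coding transcript of each gene. The trend was a Tukey biweight regression (statsmodels 0.14.6) with cubic terms in log2 length and in GC content, fitted on 12885 genes outside the families and lists. Promoters are from the RefSeq table of GRCm38.p6, which matched 53 members. Ratios, intervals and trend removal were tested on simulated data, which held counting error and a trend in GC content but none in length. Because of the pseudocount, the trend subtracted is slightly too large for low genes and too small for abundant ones.

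Named were all Timp genes, members past 2-fold, the 3 highest per-kb levels of each family, the members nearest to 2-fold inside, up to 3 genes per pathway list by ratio and 2 per marker list by level. Others were chosen after their values were seen. Members and lists were chosen with earlier results of these data known. Both lines also carry another engineered change, which is not reported here. Alternatives were DESeq2 1.42.0 size factors, library totals, pseudocounts of 0.25 and 4 CPM, a mean of at least 5 CPM, no filter, and the trend removed.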

Additional observations from a re-analysis of the deposited data

How the results depend on the processing

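Of the 41 measured members, all kept their side of 2-fold with library totals alone, and so did the members left by either other filter. DESeq2 size factors took Timp2 and Mmp28 within 2-fold, and a pseudocount of 4 CPM took Mmp28 and Adamts9 within it. A pseudocount of 0.25 CPM took Adam12 and Adam33 past it. No member past 2-fold changed direction under any of these alternatives. Over all 5 families the higher members numbered 6 to 9 and the lower ones 7 to 9. For the Timp genes, 1 was higher with DESeq2 size factors and 0 with the trend removed. Of the Adam genes 3 were lower with a pseudocount of 0.25 CPM and 2 with the trend removed, and of the Adamts genes 1 was higher with a pseudocount of 4 CPM. Family medians of the log2 ratio moved as follows. With a mean of at least 5 CPM the Mmp median was 0.97 and the Adamtsl median 0.27. With no filter, which adds near-silent genes whose ratio the pseudocount holds near 0, the medians were 0.19 (Mmp), −0.11 (Adam), −0.0795 (Adamts) and 0.69 (Timp). With a pseudocount of 4 CPM the Adamts median was −0.68. With the trend removed they were −0.0752 (Adam), −0.80 (Adamts) and 0.84 (Timp), and 3 pathway genes were lower in place of 5. Over all genes 645 were lower with the trend removed in place of 1396, and a pseudocount of 4 CPM gave 453 higher and 914 lower. No paired analysis was possible because each group has 1 library, and none could be left out. At this depth the ratios of members with few counts had wide intervals, such as 0.621 to 6.31 for Mmp12. Variation between cultures was not measured.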
